A study of Nothobranchius furzeri and Aphyosemion australe and Iconisemion striatum with 145 samples.

Results

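The DNA replication genes of the African turquoise killifish were examined in embryo bodies before diapause. They were picked by gene symbol, through a pattern of names that was set with earlier results of these data known. The pattern covers origin licensing, helicase activation, the replicative polymerases, and the sliding clamp and its loader. Okazaki fragment processing, fork protection, nucleotide supply and chromatin assembly are covered as well. The pattern matched 64 of the 25122 genes in the African turquoise table. It matched 0 of the 38810 features in the table of lyretail and red-striped killifish, whose identifiers carry no symbols, so the 6 lyretail and 5 red-striped libraries are not analysed here, nor are the other African turquoise libraries of the series, from diapause and development.

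RNA was sequenced from 4 pools of African turquoise embryos (Nothobranchius furzeri, GRZ strain) of 1 stage, named pre-diapause, and each pool gave 1 library. The fish carried no engineered allele and the embryos received no treatment. Per the labels, the embryos still had Kupffer's vesicle, a transient organ of early to middle somitogenesis, and 15 to 22 somites. The methods give a higher upper number of somites for this stage. Each library was made from the dissected bodies of 8 to 10 embryos, without chorion, enveloping layer or yolk. The parents were young fish in their first breeding session, and the methods state that most of their embryos were expected to skip diapause and go on developing. No other condition is present among these libraries, and the sources used here do not say whether the pools came from separate clutches. The results below are therefore levels and their spread over 4 pools, given without a test between conditions.

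Before a cell copies its genome, the origin recognition complex (ORC), CDC6 and CDT1 load the MCM2 to MCM7 helicase onto origins, a step called licensing that geminin blocks by binding CDT1. In S phase the CDC7 and DBF4 kinase and a set of firing factors join CDC45 and GINS to the helicase, and polymerases alpha, epsilon and delta then copy the strands behind it. In mammals many of these genes are transcribed under the control of E2F factors as cells pass from G1 into S phase, and their messenger RNAs are abundant in tissues whose cells divide rapidly, such as embryos in somitogenesis.

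Between 25985703 and 41191533 reads per library were counted, and library 2 was the deepest. Counts were converted to CPM, the counts per 1000000 counted reads of a library. The share of the 10 most abundant genes was 7.15% in library 2 and 6.20% to 6.32% in the others. Genes of ribosomal proteins (68 symbols) took 15.4% of the counts in library 3, against 9.84%, 9.84% and 11.9% in libraries 1, 2 and 4. Of the markers set for the embryo body, the 5 measured of 7 somite and muscle genes summed to 204 to 319.8 CPM and the 5 measured of 8 neural genes to 236 to 352 CPM. Of 7 enveloping layer genes, 2 were measured and summed to 7.67 to 14.7 CPM, and 2 of 8 yolk syncytial layer genes summed to 4.25 to 8.84 CPM. Of the notochord and tail bud list only shh was measured, while no symbol of the hatching gland or red blood cell lists was in the table.

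All 64 genes had at least 1 CPM in each of the 4 libraries, and the lowest value of any of them was 1.83 CPM, from mcm8 in library 3. Of all genes in the table, 53.7% passed this limit. All 25 measured genes of a mitosis list and all 37 of a DNA repair list, described below, also passed. By mean CPM, the median replication gene stood at 52.9 CPM and the median of the 13479 genes that passed at 14 CPM. The median mitosis gene stood at 43.2 CPM and the median repair gene at 18.2 CPM. CPM are not divided by gene length, so these medians, and any order between genes, also depend on transcript length. The replication genes together took 1.04% of the counts in library 1 (95% Wilson interval 1.040% to 1.047%), 1.40% in library 2 (1.394% to 1.401%), 0.923% in library 3 (0.920% to 0.927%) and 1.12% in library 4 (1.112% to 1.119%). These intervals cover counting error only. Their sum was thus highest in library 2, which held 13976 CPM, against 10435, 9235 and 11155 CPM in libraries 1, 3 and 4. Of the counts on the replication genes, 41.9% to 48.6% came from only pcna and dut, and without them the sums were 5589, 7180, 5365 and 6245 CPM in libraries 1, 2, 3 and 4.

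**Figure D1:**
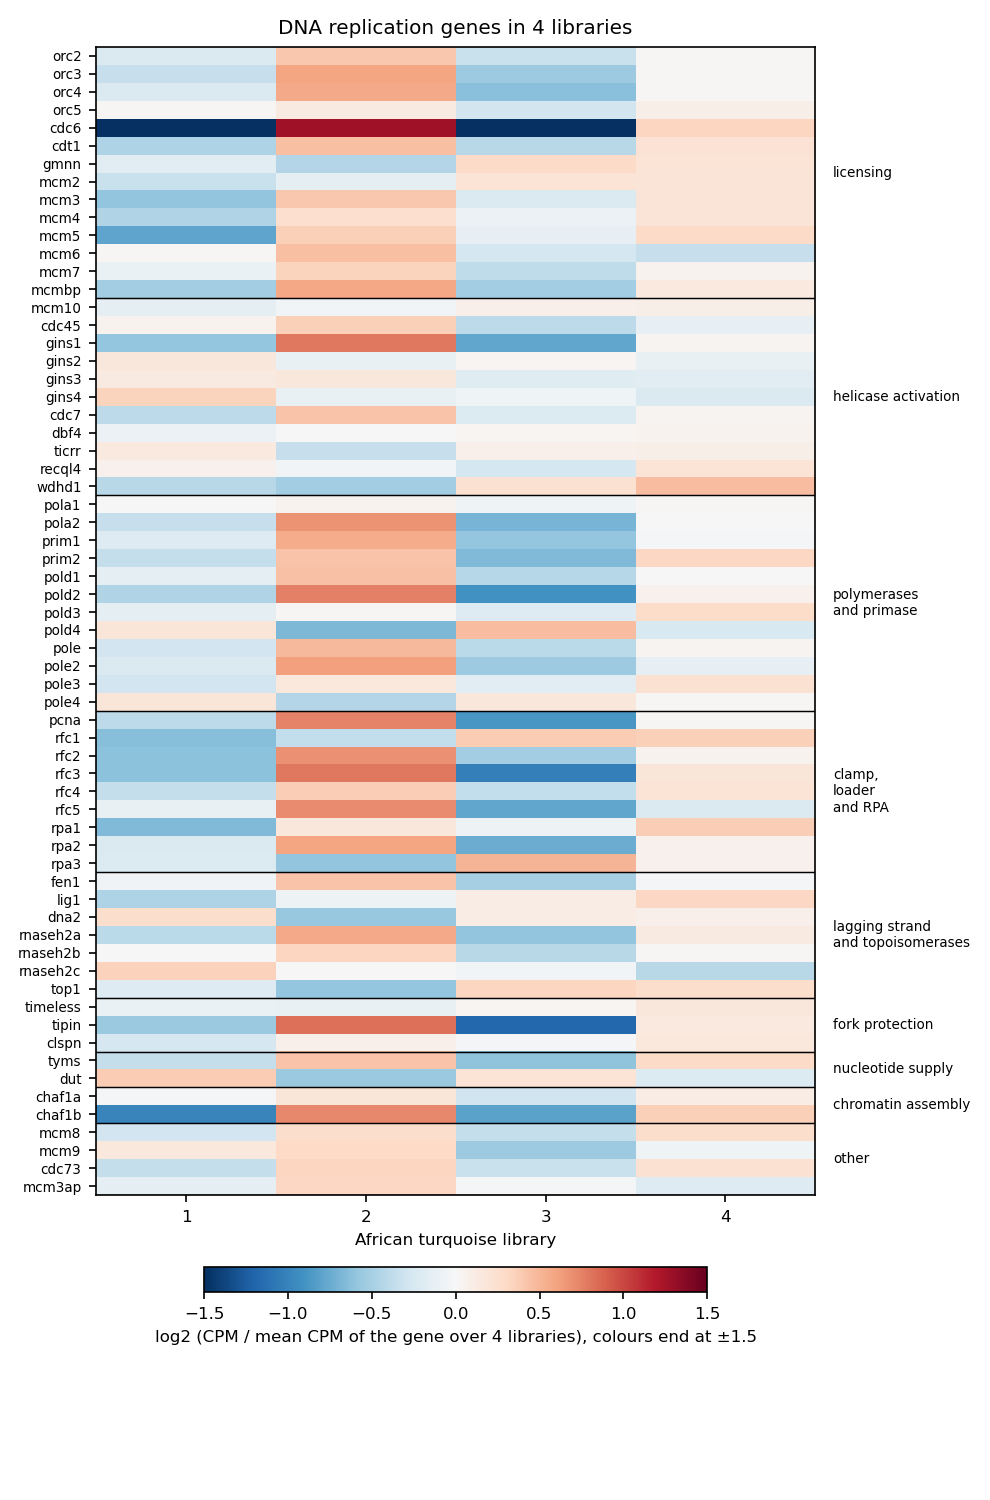
Level of each of the 64 DNA replication genes in the 4 African turquoise libraries, as log2 of its CPM over its own mean CPM of the 4 libraries, grouped by role. Library 2 holds the highest value of 40 genes, and the strongest colours belong to cdc6, which had 3.12, 45.5, 3.06 and 23.5 CPM in libraries 1, 2, 3 and 4.

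Among the licensing genes, cdc6, which joins ORC at the origin and is needed to load the helicase, varied most. It had 3.12, 45.5, 3.06 and 23.5 CPM in libraries 1, 2, 3 and 4, from 81, 1875, 104 and 701 counts. Libraries 2 and 4 were therefore far above libraries 1 and 3, with 14.9-fold between the highest and the lowest. Its coefficient of variation (SD divided by the mean) was 1.08, above that of 99.97% of the expressed genes, where counting error alone at its mean count would give 0.0381. The cdt1 gene, whose product works beside CDC6 in loading, had 16.9, 31.9, 17.4 and 27.1 CPM in libraries 1, 2, 3 and 4. Its libraries took the same places at the top, within a range of 1.89-fold. Geminin (gmnn), the inhibitor of CDT1, had 143, 119, 197 and 186 CPM in the same order and was lowest in library 2, where cdt1 and cdc6 were highest.

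ORC subunits bind the origin and recruit CDC6. The orc2 gene had 26.6, 40.8, 24.5 and 31.2 CPM in libraries 1, 2, 3 and 4. The orc3 gene had 19.2, 36.8, 16.7 and 24.6 CPM, and orc4 had 62.8, 108, 47.1 and 73.6 CPM. All of these were highest in library 2 and next highest in library 4. The orc5 gene had 38.2, 41.3, 31.2 and 40.0 CPM, with the same libraries at the top but only 1.33-fold between the highest and the lowest. The table lists orc1 under LOC107395688, a number that RefSeq (assembly NfurGRZ-RIMD1) pairs with orc1 and that the name pattern did not take in. It had 3, 33, 3 and 14 counts in libraries 1, 2, 3 and 4, which is 0.115 CPM (95% exact Poisson interval 0.0238 to 0.337), 0.801 CPM (0.551 to 1.13), 0.0884 CPM (0.0182 to 0.258) and 0.469 CPM (0.257 to 0.788). The interval of library 2 lies above those of libraries 1 and 3, while that of library 4 overlaps those of libraries 1, 2 and 3. As with cdc6, libraries 2 and 4 held the larger values, but the intervals set only library 2 above libraries 1 and 3. The orc1 gene stayed below 1 CPM everywhere. A symbol orc6 was not in the table and is not analysed here.

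**Figure D2:**
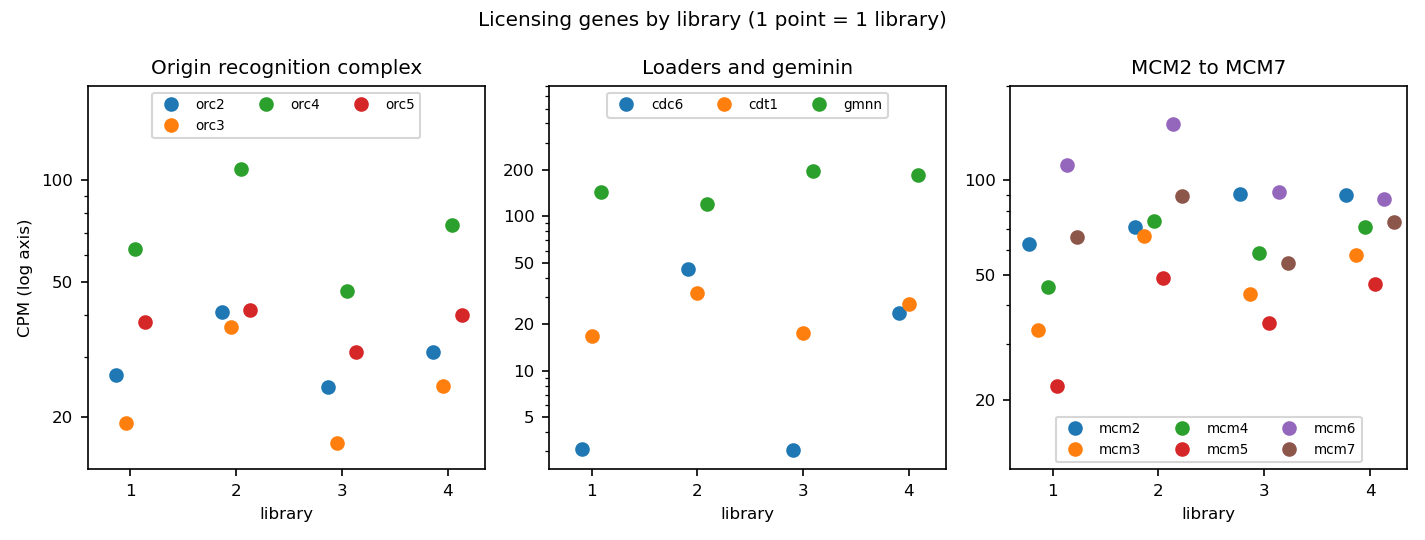
CPM on a log axis of the licensing genes in libraries 1 to 4, with the origin recognition complex on the left, cdc6, cdt1 and gmnn in the middle and MCM2 to MCM7 on the right, where each point is 1 library. The points of cdc6 span 3.06 to 45.5 CPM, whereas those of gmnn lie between 119 and 197 CPM and are lowest in library 2.

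The MCM2 to MCM7 proteins form the ring of the replicative helicase. Across the 4 libraries, mcm2 had 62.5, 71.2, 90.3 and 90.0 CPM, mcm3 had 33.4, 66.6, 43.3 and 57.6 CPM, and mcm4 had 45.6, 74.4, 58.5 and 71.1 CPM. The mcm5 gene had 22.0, 48.9, 35.2 and 46.7 CPM, mcm6 had 112, 151, 91.9 and 86.9 CPM, and mcm7 had 66.2, 88.9, 54.5 and 73.7 CPM. Thus 5 of the 6 ring genes were highest in library 2, whereas mcm2 was highest in library 3, and the range between libraries lay between 1.44-fold for mcm2 and 2.22-fold for mcm5. The ring genes did not share 1 order of libraries, since mcm6 was lowest in library 4 and mcm7 in library 3, while the other 4 were lowest in library 1. The mcmbp gene, whose product binds MCM proteins, had 38.9, 83.1, 38.6 and 61.8 CPM. Of all 14 licensing genes, 12 were highest in library 2, where 34.7% of all expressed genes were.

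The median coefficient of variation of the 11 helicase activation genes was 0.145, against 0.280 over the 14 licensing genes, a difference that was not tested. DBF4, the activating subunit of the CDC7 kinase, was encoded at 18.2, 19.3, 19.8 and 20.1 CPM in libraries 1, 2, 3 and 4. On library totals its coefficient of variation was 0.0444, close to the 0.0397 that counting error alone would give. Its highest library moved from 4 to 3 with TMM or DESeq2 size factors, for which its spread is not given here. The cdc7 gene itself had 7.74, 13.7, 8.81 and 10.4 CPM and was highest in library 2, whereas dbf4 was not. A second activator gene, dbf4b, had 10.7, 11.6, 7.04 and 8.45 CPM in libraries 1, 2, 3 and 4. It was also highest in library 2, though its 95% exact Poisson intervals in libraries 1 and 2 overlap. The log2 ratio of dbf4 to cdc7 counts, with 1 count added to each, was 1.23, 0.49, 1.17 and 0.95 in the 4 libraries.

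MCM10, which is needed to start unwinding, was encoded at 14.4, 15.5, 16.8 and 16.9 CPM, and cdc45, a subunit of the active helicase, at 36.0, 44.6, 26.4 and 31.8 CPM. The highest of the 4 libraries was 1.17 times the lowest for mcm10 and 1.69 times for cdc45. The firing factor gene ticrr (treslin) had 9.04, 6.43, 8.63 and 8.68 CPM and was lowest in library 2. The recql4 gene, of a helicase that acts in initiation, had 8.31, 7.74, 6.63 and 9.22 CPM. The wdhd1 gene, whose product links the helicase to polymerase alpha, had 7.58, 7.09, 11.9 and 14.02 CPM. Neither of the last pair had its highest value in library 2, and wdhd1 was highest in library 4. For recql4, libraries 4 and 1, with 275 and 216 counts, lay too close to be ordered.

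GINS is a ring of 4 different subunits that each helicase holds once. The gins1 gene had 52.0, 134, 45.2 and 79.8 CPM in libraries 1, 2, 3 and 4. The gins2 gene had 328, 269.8, 296 and 269 CPM, gins3 had 176, 180.5, 141 and 143 CPM, and gins4 had 178, 131, 135 and 122 CPM. The range between libraries was 2.96-fold for gins1 and 1.22-fold for gins2, so the subunit genes of this complex did not vary together. Library 2 was the highest for gins1 and gins3, and library 1 the highest for gins2 and gins4, although gins2 was highest in library 3 when libraries were scaled with TMM or DESeq2 size factors.

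Polymerase alpha and primase lay the primers of each new strand. The catalytic subunit gene pola1 had 36.7, 38.4, 35.3 and 37.6 CPM in libraries 1, 2, 3 and 4, with a coefficient of variation of 0.0358, the lowest of all 64 genes. The accessory subunit gene pola2 had 23.3, 47.2, 18.2 and 29.4 CPM. The primase genes prim1 and prim2 had 108, 181, 82.7 and 123 CPM and 39.5, 67.9, 31.9 and 62.6 CPM. Apart from pola1, which hardly varied and whose highest library changed with the scaling, these genes were highest in library 2 and had a range of 2.13-fold to 2.59-fold.

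Polymerase delta extends the lagging strand and polymerase epsilon the leading strand. The catalytic subunit genes pold1 and pole had 32.4, 48.2, 26.6 and 35.6 CPM and 14.7, 25.2, 13.6 and 18.5 CPM in libraries 1, 2, 3 and 4. Their log2 ratio of pole to pold1 counts was -1.13, -0.94, -0.97 and -0.94, a range of only 1.15-fold, the narrowest of the 11 pairs compared. The subunits beside them differed more. The pold2 gene had 49.5, 114, 35.9 and 70.4 CPM, whereas pold4, of the smallest subunit, had 157, 86.8, 191 and 118 CPM and was lowest in library 2. In polymerase epsilon, pole2 had 33.3, 59.7, 26.7 and 35.8 CPM, whereas pole4, of a histone-fold subunit, had 255, 166, 254 and 228 CPM and was lowest in library 2. The remaining subunit genes, pold3 and pole3, ranged from 102 to 142 CPM and from 172 to 245 CPM, and both were highest in library 4.

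**Figure D3:**
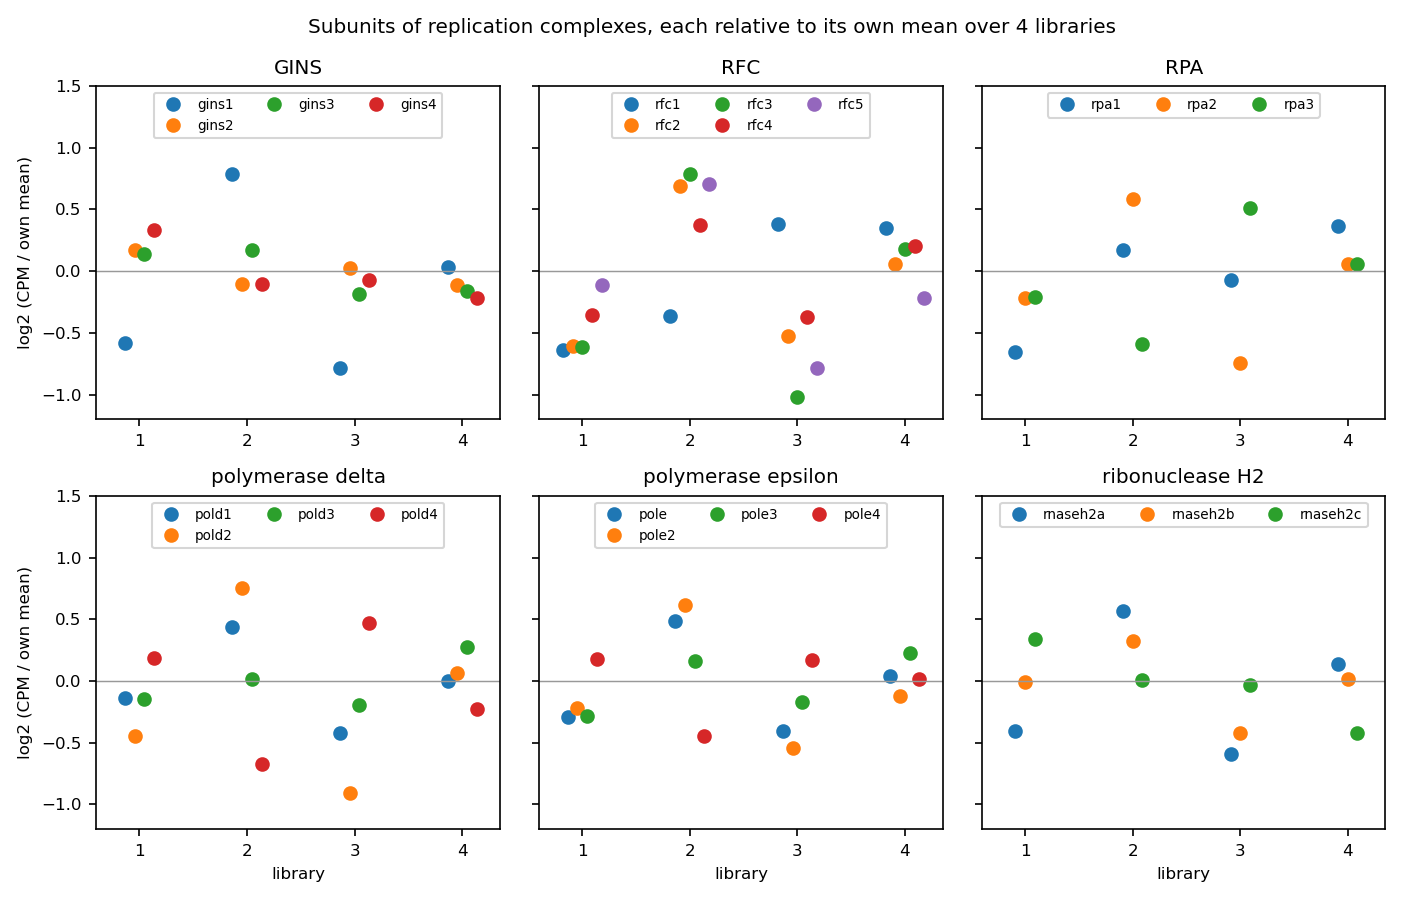
Subunit genes of 6 replication complexes in libraries 1 to 4, as log2 of CPM over the own mean of each gene, with the line at 0 marking that mean. In library 2, gins1, pold2, pole2, rpa2 and rnaseh2a lie above the line, while gins2, gins4, pold4, pole4 and rpa3 lie below it.

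PCNA, the clamp that tethers polymerases to DNA, was encoded at 2539, 5588, 1822 and 3377 CPM in libraries 1, 2, 3 and 4, the highest mean of the 64 genes at 3332 ± 1633 CPM (SD, n = 4). The highest library was 3.07 times the lowest. RFC, the loader that opens the clamp, has a large subunit, RFC1, and 4 small ones. The rfc3 gene had 88.2, 233, 66.7 and 153 CPM, and its order of libraries was that of pcna. Among the other small subunits, rfc2 ranged from 66.6 to 163 CPM, rfc4 from 110.2 to 185 CPM and rfc5 from 101 to 284 CPM, each with its highest value in library 2. The large subunit gene rfc1 had 16.3, 19.8, 33.2 and 32.5 CPM and was highest in library 3.

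RPA coats single-stranded DNA at the fork. The rpa1 gene had 21.9, 38.9, 32.8 and 44.5 CPM in libraries 1, 2, 3 and 4. The rpa2 gene had 489, 855, 339 and 593 CPM, and rpa3 had 510.1, 391, 839 and 613 CPM. Each of the 3 subunit genes thus had its highest value in a different library, rpa1 in library 4, rpa2 in library 2 and rpa3 in library 3. The log2 ratio of rpa1 to rpa2 counts was -4.48, -4.46, -3.37 and -3.74.

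Okazaki fragments are trimmed by the flap nuclease FEN1 and sealed by DNA ligase LIG1. The fen1 gene had 411, 577, 304 and 419.8 CPM in libraries 1, 2, 3 and 4, and lig1 had 23.5, 30.7, 34.7 and 40.1 CPM. Library 3 was the lowest for fen1 but the second highest for lig1, and their log2 count ratio, lig1 to fen1, was -4.13, -4.23, -3.13 and -3.39. Ribonuclease H2 removes ribonucleotides from DNA, and its catalytic subunit gene rnaseh2a had 102, 201, 89.7 and 149 CPM. The accessory subunit genes rnaseh2b and rnaseh2c ranged from 241 to 403 CPM, highest in library 2, and from 220.2 to 374 CPM, highest in library 1. The nuclease gene dna2 ranged from 11.4 to 20.3 CPM and the topoisomerase gene top1 from 57.4 to 107 CPM, and both were lowest in library 2.

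TIMELESS and TIPIN form a complex that stabilises stalled forks. The timeless gene had 14.01, 13.8, 15.2 and 16.8 CPM in libraries 1, 2, 3 and 4, whereas tipin had 30.1, 78.7, 19.7 and 49.0 CPM. Timeless to tipin counts stood at a log2 ratio of -1.10, -2.51, -0.37 and -1.55, a range of 4.40-fold between partners of 1 complex. The coefficient of variation of tipin, 0.583, was the second highest of the 64 genes, and that of timeless, 0.0905, was among the lower ones. The clspn gene of claspin, a checkpoint mediator at the fork, ranged from 12.2 to 16.1 CPM.

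The chromatin assembly factor CAF-1 places histones behind the fork. The subunit gene chaf1a had 74.0, 85.8, 61.5 and 81.6 CPM in libraries 1, 2, 3 and 4, and chaf1b had 18.6, 60.7, 21.1 and 47.2 CPM. Both were highest in library 2, with a range of 1.40-fold for chaf1a and 3.27-fold for chaf1b. For chaf1a to chaf1b counts the log2 ratio was 1.99, 0.50, 1.54 and 0.79.

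The nucleotide supply genes went different ways. Thymidylate synthase (tyms), which makes the thymidine nucleotide, had 43.1, 74.3, 36.5 and 67.3 CPM in libraries 1, 2, 3 and 4. The dUTPase gene dut, whose product keeps uracil out of DNA, had 2306, 1207, 2047 and 1533 CPM. The dut gene was thus lowest in library 2, where tyms and pcna were highest. Dihydrofolate reductase (dhfr, listed as LOC107373203) had 125, 176, 226 and 228 CPM, and the ribonucleotide reductase subunit gene rrm2b (LOC107394698) had 34.0, 31.2, 22.4 and 24.2 CPM. Neither shared the order of tyms or of dut. The symbols rrm1 and rrm2 were not in the table and are not analysed here.

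Of the other genes that the pattern took in, mcm8 and mcm9 encode a helicase of homologous recombination rather than of the replication fork. They had 1.92, 2.82, 1.83 and 2.82 CPM and 4.85, 5.34, 2.98 and 4.16 CPM in libraries 1, 2, 3 and 4, the lowest of the 64 genes by mean over the libraries. The cdc73 gene, of the PAF1 complex of transcription elongation, ranged from 35.6 to 57.1 CPM, and mcm3ap, whose product acts in messenger RNA export, from 9.93 to 14.1 CPM. The pattern took in cdc73 and mcm3ap by their first letters only. The topoisomerase gene top2a (LOC107388094) ranged from 58.6 to 79.0 CPM and dbf4b (LOC107387863), of a second CDC7 activator, from 7.04 to 11.6 CPM.

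Over all 64 genes, 40 had their highest CPM in library 2, where 34.7% of all expressed genes had theirs. That is 62.5% of the replication genes. Library 1 held the highest value of 7 of them (33.1% of all expressed genes), library 3 of 6 (14%) and library 4 of 11 (18.2%). With library sizes scaled by TMM or by DESeq2 size factors, 40 were again highest in library 2, where 36.3% and 36.4% of the expressed genes were, and 39 genes were so under every scaling. The exception was pola1, highest in library 3 under both other scalings, where mcm8 was highest in library 2 instead. On library totals mcm8 had 2.82 CPM in both library 2 and library 4, too close to be ordered. Of the 64 genes, 34 were highest in library 2 and next highest in library 4, against 22.1% of the expressed genes, and 33 of the 34 kept these places under every scaling. On library totals the most frequent full order, 2 above 4 above 1 above 3, was that of 26 replication genes and of 16.3% of the expressed genes. On library totals, the order 1 above 3 above 4 above 2 was that of 3 replication genes, dut, pole4 and dna2, and of 11.9% of the expressed genes. With either other scaling, library 3 stood above library 1 for these 3 genes. The exact reverse of the most frequent order, 3 above 1 above 4 above 2, was on library totals that of pold4 alone and of 5.77% of the expressed genes. Since the replication genes share 4 libraries and are not independent of each other, these shares are a description and carry no test.

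Library 3 held the lowest CPM of 33 of the 64 genes (38.7% of the expressed genes), library 1 of 16 (14.2%), library 2 of 10 (36.6%) and library 4 of 5 (10.5%). The lowest place depended on the scaling. With TMM, which lowered the values of library 1 by 0.11 and raised those of library 3 by 0.13 on the log2 scale, 29 genes were lowest in library 1 and 21 in library 3, against 24.5% and 25.3% of the expressed genes under that scaling. Libraries 1 and 3 are therefore not ordered by these data. The 10 genes lowest in library 2 were gmnn, ticrr, wdhd1, pold4, pole4, rpa3, dna2, top1, timeless and dut, and 9 of them, all but timeless, were so under every scaling. Without library 2, 45 of the 64 genes were highest in library 4, where 39.9% of the genes expressed in the other 3 libraries were. The 45 follows from the orders above, as it joins the 34 genes with library 4 next after library 2 to the 11 highest in library 4.

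**Figure D4:**
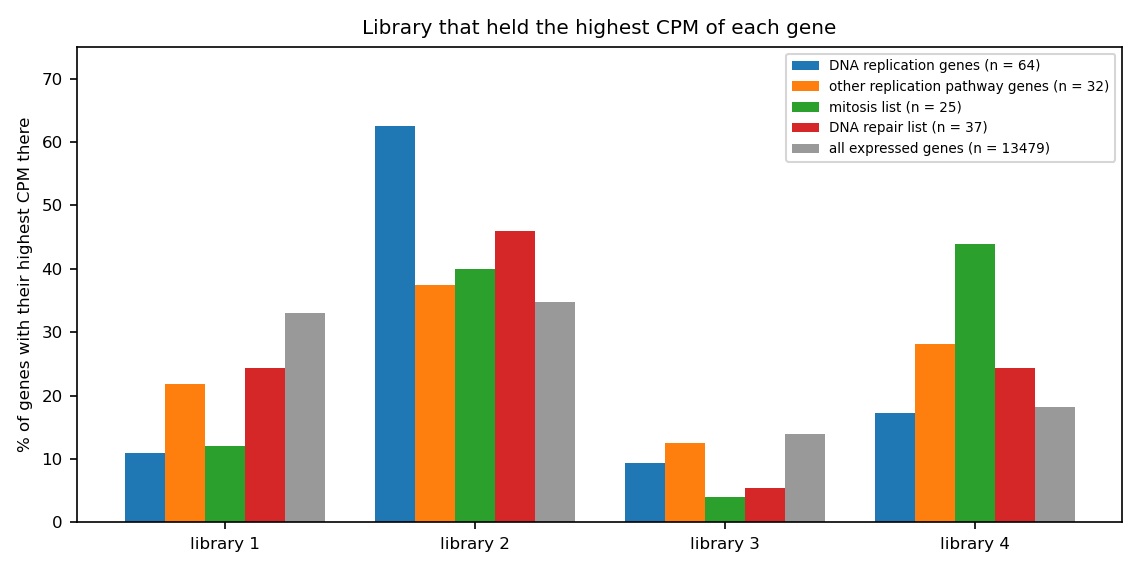
Share of genes, in percent, whose highest CPM fell in each library, for the DNA replication genes, other genes of the replication pathway, mitosis genes, DNA repair genes and all expressed genes. For library 2 the bars stand at 62.5%, 37.5%, 40.0%, 45.9% and 34.7%.

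Marker genes of embryonic tissues and the ribosomal protein share also differed between these libraries, and their part in the pattern was not tested. The measured somite and muscle markers summed to 231, 319.8, 204 and 316 CPM in libraries 1, 2, 3 and 4, and the neural markers to 261, 352, 236 and 339 CPM. Both sums were highest in library 2 and next highest in library 4, but the single markers did not share this order. Of the neural markers, sox3 and neurog1 were highest in library 2, whereas sox2, pax6 and elavl3 were lowest there, at 9.44, 8.64 and 34.5 CPM. Of the somite and muscle markers, myf5, myod1 and meox1 were highest in library 2 and msgn1 in library 4, on library totals. The myog gene had 21.74, 21.70, 16.8 and 21.4 CPM in libraries 1, 2, 3 and 4. Its values in libraries 1, 2 and 4 lay too close to be ordered, as counting error alone would give a coefficient of variation of 0.0387. The enveloping layer markers summed to 14.7, 7.67, 14.3 and 10.1 CPM and the yolk syncytial layer markers to 8.81, 4.25, 8.84 and 6.20 CPM. Both sums were lowest in library 2. For mttp of the yolk list, with 16 to 26 counts per library, libraries 2 and 4 lay too close to be ordered, at 0.558 and 0.537 CPM. In bulk RNA of whole bodies, fewer cells of a type and less RNA per cell cannot be told apart.

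The spread of the replication genes between libraries was close to that of all expressed genes. Their median coefficient of variation was 0.263, against 0.251 over all expressed genes, and 24 of the 64 (37.5%) had a highest CPM of at least 2 times the lowest, against 36.1% of the expressed genes. Of the lists described below, 12.0% of the mitosis genes, 10.8% of the repair genes and 43.8% of the other replication pathway genes had such a range. These differences were not tested. Within the replication genes the coefficient of variation ran from 0.0358 for pola1 to 1.08 for cdc6. The 5 genes of highest spread were cdc6, tipin, chaf1b, rfc3 and gins1, each in the order 2, 4 and then libraries 1 and 3, and chaf1b alone of them had library 3 above library 1 on library totals. By role, the median was highest for the clamp, loader and RPA genes, at 0.382 over 9 genes, of which 8 had a range of at least 2-fold.

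**Figure D5:**
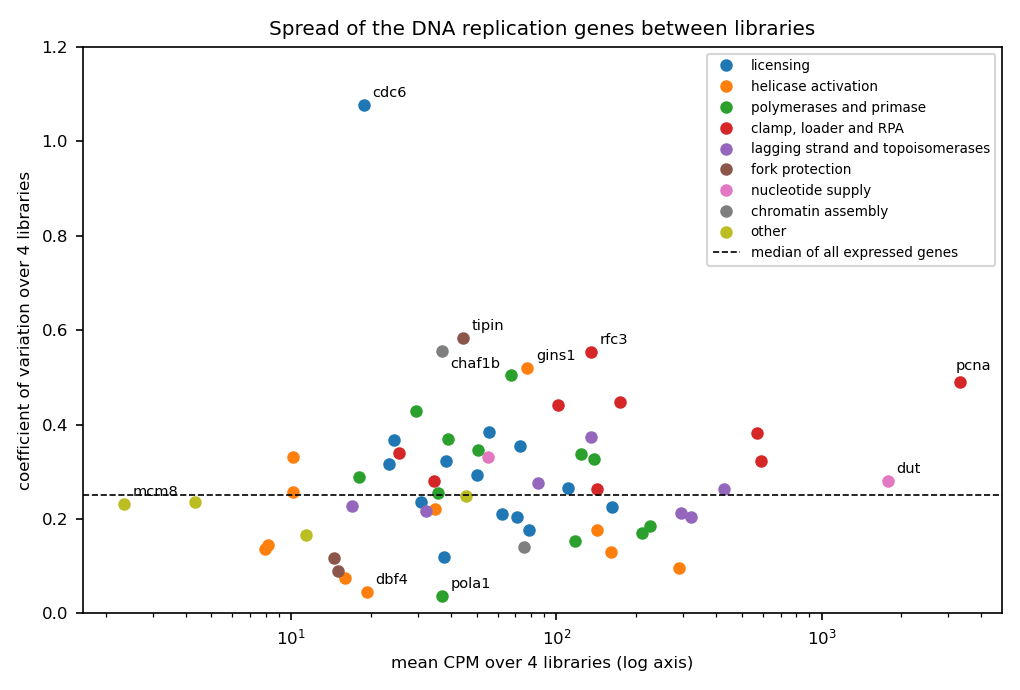
Coefficient of variation of CPM over the 4 libraries against mean CPM on a log axis for the 64 DNA replication genes, coloured by role, with the median of all expressed genes (0.251) as a dashed line. The cdc6 gene stands alone at 1.08, while pola1 and dbf4 lie lowest at 0.0358 and 0.0444.

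Genes of mitosis and of DNA repair were set beside the replication genes. Of the mitosis list, 25 of 33 symbols were in the table, with a median coefficient of variation of 0.182, and 10 of the 25 were highest in library 2 and 11 (44.0%) in library 4, against 34.7% and 18.2% of all expressed genes. Of the repair list, 37 of 39 were in the table, with a median of 0.171, and 17 of the 37 were highest in library 2. The share highest in library 2 was thus 62.5% for the replication genes, 40.0% for mitosis, 45.9% for repair and 34.7% for all expressed genes, a difference that was not tested. Cyclin B1 (ccnb1), a partner of the mitotic kinase CDK1, had 10.7, 53.8, 10.5 and 32.9 CPM in libraries 1, 2, 3 and 4. Library 2 was highest and library 4 next, as for cdc6. This gene was picked after its values were seen.

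Other genes of the replication pathway lie outside the name pattern. Of 39 symbols on this list, 32 were in the table, all with at least 1 CPM in every library, and 12 of the 32 (37.5%) were highest in library 2 and 12 lowest there, both close to the 34.7% and 36.6% of all expressed genes. The E2F activator gene e2f1 had 21.5, 13.9, 24.02 and 23.8 CPM in libraries 1, 2, 3 and 4, and e2f3 had 55.7, 45.2, 43.7 and 52.1 CPM. Neither was highest in library 2. Of the other E2F genes, e2f8 was highest there, e2f4 and e2f7 were lowest there, and e2f2 was highest in library 1. The cyclin genes ccne1, ccne2 and ccnd1 were highest in library 2, and ccna2 in library 4. The pocket protein genes rb1 and rbl1, of repressors that bind E2F factors, were both lowest in library 2. They ranged from 14.4 to 23.2 CPM and from 8.50 to 19.8 CPM. The rbl2 gene of the same family ranged from 1.15 to 2.18 CPM. Its values in libraries 1 and 2, 1.15 and 1.24 CPM from 30 and 51 counts, lay too close to be ordered. The gene of the CDK inhibitor p27 (cdkn1b) had 20.5, 9.01, 17.0 and 18.6 CPM and was lowest in library 2.

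In contrast, slbp, whose product binds the messenger RNAs of replication-dependent histones, had 60.0, 131, 60.8 and 95.6 CPM in libraries 1, 2, 3 and 4. The gene of topbp1, a firing factor partner of treslin, had 5.70, 12.9, 8.02 and 9.76 CPM, and donson, of a fork and firing protein, had 6.85, 13.9, 6.22 and 10.5 CPM. These were highest in library 2 and next highest in library 4, as was dtymk, of the thymidylate kinase, at 139.8, 224, 134 and 204 CPM. Thymidine kinase (tk1), on the salvage route to the same nucleotide, had 234, 182, 207 and 270.3 CPM and was lowest in library 2. The maintenance methyltransferase gene dnmt1, whose product copies DNA methylation behind the fork, stayed between 80.9 and 90.1 CPM, while uhrf1, whose product recruits it, had 42.5, 18.01, 39.3 and 44.8 CPM.

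Ratios within a library are free of library scaling, and their change between libraries is free of gene length. Of 14 pairs chosen, 11 had both genes in the table by symbol. The widest range between libraries was that of cdc6 to cdt1, with log2 count ratios of -2.42, 0.51, -2.50 and -0.21 in libraries 1, 2, 3 and 4, an 8.06-fold difference between the highest and the lowest. The log2 ratio of gmnn to cdt1, the inhibitor to its target, was 3.08, 1.91, 3.49 and 2.78, with its lowest value in library 2. For prim1 to prim2 it was 1.45, 1.42, 1.37 and 0.97, for mcm10 to cdc45 it was -1.32, -1.53, -0.65 and -0.91, and for mcm8 to mcm9 it was -1.32, -0.92, -0.70 and -0.56. The narrowest ranges of the 11 pairs were 1.15-fold for pole to pold1 and 1.40-fold for prim1 to prim2. For prim1 to prim2, library 4 stood apart from the other 3. For pole to pold1, library 1 was lowest, from 383 and 842 counts. Counting error alone would give coefficients of variation of 0.0405 for pole and 0.0289 for pold1. The gap of library 1 was thus too small to be told from counting error.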

How the data were processed

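The deposited counts are whole numbers of reads per gene, made by the authors without normalization. Per the methods and the submitters' processing notes, adaptors were trimmed with Trim Galore 0.4.5, reads were aligned with STAR 2.7.1a to the African turquoise genome, reads aligning to several loci were removed with SAMtools 1.5, and the rest were counted with featureCounts of Subread 2.0.1. Reads that fit more than 1 near-identical copy are thus not in the counts. Library cDNA came from a low-input amplification kit, and the counting is not stated to use strand.

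CPM on library totals (25985703 to 41191533) came from Python 3.11.15 (numpy 2.4.6, pandas 2.3.3), intervals from scipy 1.17.1 and plots from matplotlib 3.10.9. A gene was called expressed at 1 CPM or more in all 4 libraries. TMM factors of edgeR 4.0.16 and size factors of DESeq2 1.42.0 in R 4.3.3 served as other scalings. No count model was tested, since the libraries analysed here have 1 condition. Pairs of these 4 libraries differed by more than counting noise (chi-square per degree of freedom at least 82.9). The computation was tested on simulated counts in which the genes varied independently. That test checked the code and does not cover spread shared between genes.

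Genes were matched by symbol, and 5 LOC entries by RefSeq gene number. No transcript or coding lengths and no sequences were used here, so the planned division by length, the range of levels within complexes, the promoter motif search and the sign-flip test of the pairs, whose sign depends on length, were not run. All 64 genes of the pattern are named by role, and those of the licensing step, the pairs and the extremes of level and spread with each library's value. The members and lists were chosen with earlier results of these data known. Alternatives covered the expression limit, scaling, membership, pseudocount and leaving out libraries.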

Additional observations from a re-analysis of the deposited data

Results flagged for a closer look

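Values of the 4 libraries were screened with Dixon's test, which asks whether the gap between an extreme library and its neighbour is too large a share of their whole range (95% critical value). Of 81 groups of values, 3 held such a library, which is no more than the share of about 1 in 20 that chance gives. On library totals, the only scaling screened, the ticrr gene had 6.43 CPM in library 2, against 8.63 to 9.04 CPM in the others. Either other scaling lowers library 1 and raises library 3, which widens the range of the others, so the flag of ticrr depends on the scaling. For pole to pold1 the log2 count ratio was -1.13 in library 1, against -0.97 to -0.94, a gap too small to be told from counting error. For prim1 to prim2 it was 0.97 in library 4, against 1.37 to 1.45. The cdc6 gene was not among them, because library 4 lay between library 2 and the lower pair.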

How the results depend on the processing

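All 64 genes passed at 0.5 CPM, at 10 counts, with either other scaling and with any library left out. At these depths 0.5 CPM, 10 counts and leaving out a library are looser than the main limit, so they could not lower the number. At 5 CPM 61 passed, and 68 of 69 passed with the 5 genes named through RefSeq, orc1 being the exception. The number of genes highest in library 2 was 40 under both scalings, against 36.3% and 36.4% of the expressed genes. Other places moved by more than 1.5 times with the scaling. With TMM, 2, 15 and 7 genes were highest in libraries 1, 3 and 4, against 20.2%, 28.5% and 15.1% of the expressed genes. Under TMM, 29 and 21 were lowest in libraries 1 and 3, against 24.5% and 25.3%. With DESeq2 size factors, 2, 16 and 6 genes were highest in libraries 1, 3 and 4, against shares of 23.2%, 27.5% and 12.9%. Library 1 was then lowest for 26 genes, against 21.9% of the expressed genes. The 15 and 16 genes highest in library 3 were 23.4% and 25.0% of the 64. The moves between scalings follow from the factors themselves, which shift library 1 down and library 3 up. Without library 2, an alternative chosen after the data were seen, 12, 7 and 45 genes were highest in libraries 1, 3 and 4, against 44.1%, 16% and 39.9% of the expressed genes, and 21, 34 and 9 lowest, against 23.9%, 47.6% and 28.6%. These gene counts are fixed by the order of the 4 libraries in each gene. The median coefficient of variation, 0.263, lay between 0.202 and 0.305 with each library left out, the lowest without library 2. The mean ratios within pairs kept their sign with other pseudocounts and with each library left out. Their moves of less than 1 SD are no check, because leaving out 1 of 4 libraries cannot move a mean that far. The sign depends on gene length, and in single libraries the log2 ratio of cdc6 to cdt1 ran from -2.50 in library 3 to 0.51 in library 2.

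No paired analysis was possible because the libraries analysed here come from 1 group only. Depth limits orc1, with 3 counts in libraries 1 and 3, and mttp, with 16 to 26 counts. To a lesser degree it limits rbl2, whose lowest count was 30, and mcm8, whose lowest count was 50.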
